A study of Mus musculus with 2 samples.

Results

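The genes described here are 36 genes of S phase and DNA replication, taken as a list by function, with earlier results of these data known, and not picked by a rule on their values: 9 of origin licensing and the replicative helicase, 5 of nucleotide supply, 9 of the sliding clamp, its loaders, primase and flap processing, 5 of chromatin and histone supply, 4 regulators of S phase entry and 4 of fork protection and repair. All 36 were found among the 55357 features of both count matrices. They gave 159547 UMIs (unique molecular identifiers, each marking 1 captured RNA molecule) in the kept cells of the C435A tumour library and 73075 in those of the WT tumour library.

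The study sequenced RNA of single live immune cells sorted from the lungs of C57 mice that carried metastases of B16F10, a mouse melanoma line. The tumour cells had either wild-type IRF7 (WT tumour) or IRF7 with the change C435A (C435A tumour). IRF7 is a transcription factor of the type I interferon response. The genotype is that of the implanted tumour cells, and no genotype of the immune cells is given. Cells of both groups were sorted as CD45 positive and 7-AAD negative, which takes live leukocytes, although the cell type label of both reads melanoma cell. The protocol names both BD Rhapsody and 10x 3′ V3 capture, and the number of mice behind a library is not given. There is 1 library per group, so no difference between the tumours has a replicate check and no test between them was made. All intervals below are 95% intervals that cover counting error only, and values are given for the C435A tumour library first.

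After filtering, 9427 and 9199 cells were kept, with medians of 3200.0 and 2684 UMIs per cell. Each cell was assigned to a class from its own UMIs of marker genes, none of them a cell cycle gene, which placed 91.6% and 90.3% of the cells. Of 33 marker genes held out of these gates, 27 and 25 were highest in their own class and 29 in each library were first or second there. The exceptions in both libraries were Tyrobp in NK cells, Cebpb and Itgam in monocytes and Itgax in conventional dendritic cells (cDC), so these 3 classes rest on fewer markers. The CD8 T gate needs a UMI of Cd8a or Cd8b1 and the CD4 T gate one of Cd4, so both favour deeper cells. Median UMIs were 4598 and 3184 in CD8 T cells, 3626 and 2623 in CD4 T cells and 2526 and 2442 in T cells of neither gate. Values for all T cells are given beside some results. The plasma cell gate does not set dividing plasmablasts apart from non-dividing plasma cells, so plasma cells below means both. Their mix can differ between the libraries and was not tested. The libraries shared 24 barcodes.

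DNA replication is prepared when the MCM helicase is loaded at origins in G1 and starts when helicase cofactors and cyclin E activity fire those origins. The sliding clamp PCNA then holds polymerases on DNA, while ribonucleotide reductase, thymidylate synthase and related enzymes supply deoxynucleotides and histone chaperones rebuild chromatin behind the fork. Transcription of many of these genes is driven by E2F factors, which the retinoblastoma protein holds back in resting cells. In the immune system the best known settings are clonal expansion of activated T cells, B cell and plasmablast division, and self-renewal of alveolar macrophages in the lung.

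The promoters of the genes are shown first, because E2F motifs are what many of them share apart from function. RefSeq promoters (GRCm38.p6, 250 bases before to 50 after the start) were found for 30 of the 36 genes, in 33 windows. Both strands were searched for TTTCCCGC, TTTCGCGC, TTTGCCGC and TTTGGCGC, which can overlap each other. A match was found in 12 of the 30 genes, 40%, beside 2.6% of 27025 genes in the same table. Of 26 other replication genes with a promoter, 10 had a match (38.5%), beside 1 of 22 mitosis genes (4.55%). At least 2 matches were found in 5 of the 30 genes (16.7%) and in 0.107% of all genes. The letters CCAAT, which are bound by NF-Y, were in 60% of the S phase genes, 86.4% of the mitosis genes and 41.1% of all genes. Matches were most frequent among the licensing and helicase genes, 5 of 7, and were found in 0 of 5 nucleotide supply genes. The latter include Rrm2 and Tk1, which are among the members with the highest ratios in CD8 T cells. Near matches and sites outside these windows were not searched, and a link between matches and ratios was not tested. All counts here are matches of letters in these windows and not measured binding. The stretches printed here, with the matches in capitals, are from the members with the highest ratios in CD8 T cells (Pclaf, Cdc6) and in alveolar macrophages (Cdc6, Hells) that had a match, and from 3 genes with several matches (Mcm5, Mcm6, Rfc3).
Pclaf: gcttggagcgcGCGGGAAA
Cdc6: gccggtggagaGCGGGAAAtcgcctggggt
Hells: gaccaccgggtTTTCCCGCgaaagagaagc
Mcm5: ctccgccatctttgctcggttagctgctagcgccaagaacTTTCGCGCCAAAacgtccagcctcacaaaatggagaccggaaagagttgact
Mcm6: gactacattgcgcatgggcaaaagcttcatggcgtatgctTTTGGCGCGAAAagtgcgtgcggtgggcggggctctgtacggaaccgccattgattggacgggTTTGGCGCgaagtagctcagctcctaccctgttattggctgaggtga
Rfc3: acgtcgcacgcTTTCGCGCtcGCGGGAAA

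The Pclaf stretch is chr9:65890307-65890325 on the plus strand and lies in an exon by GENCODE M21, with the match beginning at -5 from the RefSeq start. The Cdc6 stretch is chr11:98908002-98908031 on the plus strand, within the gene by GENCODE and in no exon of it. The Hells stretch, chr19:38930917-38930946 on the plus strand, is exonic by GENCODE and upstream of the RefSeq start. The Mcm5 stretch, chr8:75109316-75109407 on the plus strand, holds 2 overlapping matches and lies upstream of the gene. The Mcm6 stretch, chr1:128359706-128359855 on the minus strand, holds 3 matches, 2 of them overlapping, and lies upstream of the gene. The Rfc3 stretch, chr5:151651201-151651229 on the minus strand, holds 2 matches next to the RefSeq start and is exonic by GENCODE.

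The summed level of the 36 genes differed between cell classes within each library. It is given as UMIs per 1000000 UMIs of the class (CPM). In the C435A tumour library the order was CD8 T cells (5139.6 CPM [5102, 5177]), CD4 T cells (3907 CPM [3845, 3970.3]), plasma cells (3316 CPM [3259, 3373]) and B cells (3047 CPM [3008, 3087]), each apart from the next beyond its interval. In the WT tumour library B cells led the immune classes with 2240.4 CPM [2206, 2275], plasma cells (1919 CPM [1871, 1968]) and CD4 T cells (1827 CPM [1772, 1883]) did not differ beyond their intervals, and CD8 T cells had 1382 CPM [1354, 1411]. The place of CD8 T cells thus went from above B cells in one library to below them in the other.

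Alveolar macrophages stood at 1493 CPM [1461, 1524] and 1367 CPM [1339.9, 1394], close to CD8 T cells of the WT tumour library. C1q macrophages, gated on complement C1q genes, had 1371 and 989.7 CPM, NK cells 1188 and 1173 CPM, and cDC 1268 and 923 CPM. Monocytes had 527 and 487 CPM. Mature neutrophils, taken as a class that does not replicate its DNA, had 471 and 259 CPM, and mature dendritic cells 417 and 453 CPM. The level in mature neutrophils came from 180 and 112 UMIs and was led by Pcna and Slbp, with 75 and 60 UMIs over both libraries, while Tk1 and Prim1 were at 0 there.

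**Figure D1:**
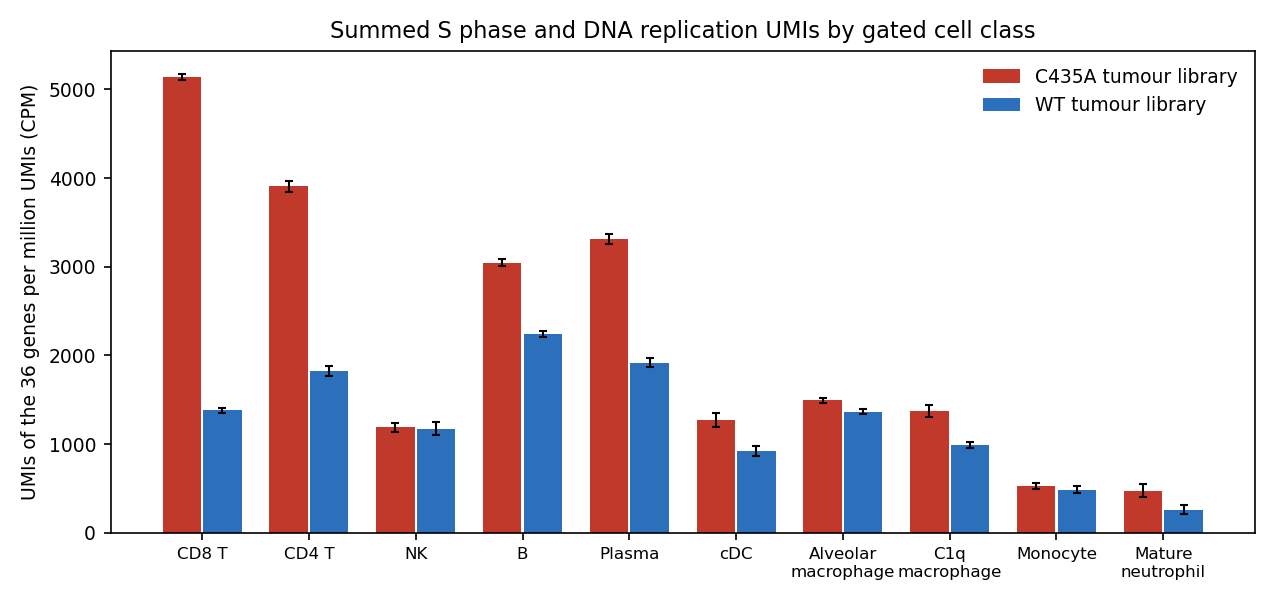
Summed level of the 36 genes (CPM, vertical axis) in 9 immune cell classes and in mature neutrophils, for the C435A tumour library (red) and the WT tumour library (blue), with 95% Poisson intervals for counting error. The libraries are furthest apart in CD8 T cells, with 5139.6 and 1382 CPM, and close in NK cells and monocytes.

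Between the tumours, the genes were counted as higher or lower where their CPM differed by at least 1.5-fold and they had at least 20 UMIs over both libraries. Beside each count stands the background, which is the share of all genes with at least 20 UMIs in that class that passed the same fold. All 36 genes were higher in CD8 T cells of the C435A tumour library, beside 17.6% of all genes, and none was lower, beside 23.3%. The summed log2 ratio (C435A tumour over WT tumour CPM) was 1.89 [1.86, 1.93], and the median gene stood at 1.80 beside -0.06 for all genes. In CD4 T cells 33 of 36 were higher (background 15.2%) and none was lower (12.8%), with a summed log2 ratio of 1.10 [1.05, 1.15]. Gins2, Ung and Nasp were the members that missed the fold there. Over all T cells the summed levels were 4663 and 1463 CPM, a log2 ratio of 1.67 [1.65, 1.70].

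In B cells the summed log2 ratio was 0.44 [0.41, 0.47], 9 of 36 genes were higher (background 3.74%) and none was lower (6.32%). Those 9 were Tyms, Ung, Pclaf, Ccne1, Dut, Ccne2, Cdc45, Rrm2 and Uhrf1. The count of B cell members depended on how strictly a cell with markers of another lineage was left out, and was 2 when the next lineage was held to 10% of the first and 5 when it was held to at most 50% of it.

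In plasma cells 28 of 36 genes were higher (background 24.7%) and none was lower (4.31%), with a summed log2 ratio of 0.79 [0.74, 0.83]. All genes were shifted in this class, with a median log2 ratio of 0.33 over the genes counted. Scaled instead to the median ratio of genes with at least 50 UMIs, the summed log2 ratio was 0.43 and 10 members were higher.

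In alveolar macrophages 4 of 36 were higher (background 10.5%), which is 11.1% of the list, and none was lower (4.72%). The summed log2 ratio was 0.13 [0.09, 0.17], beside a median of 0.12 for all genes. It was 0.01 under median ratio scaling and -0.04 with each cell weighted alike, so no direction is given. In C1q macrophages 14 of 35 were higher (background 10.7%) and none was lower (9.06%), with a summed log2 ratio of 0.47 [0.39, 0.55]. That count fell to 4 and that ratio to 0.24 when predicted doublets were kept. A single cell of the C435A tumour library held 11.4% of the S phase UMIs of its C1q macrophages.

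In cDC 11 of 28 measured genes were higher (background 12.9%) and none was lower (9.93%), with a summed log2 ratio of 0.46 [0.34, 0.58] from 108 and 139 cells. The cell with the most such UMIs held 14% and 15.4% of the total in this class. The count was 6 with the stricter lineage rule and 17 with doublets kept. The pooled ratio covers subsets that did not move together. The summed log2 ratio was -0.43 [-0.63, -0.24] in the cDC1 subset (16 and 10 cells) and 1.09 [0.90, 1.28] in the cDC2 subset (37 and 47 cells). In mature dendritic cells it was -0.12 [-0.40, 0.16]. No single direction is therefore given for cDC. In NK cells 6 of 28 were higher (background 7.53%) and 3 were lower (8.84%), and the summed log2 ratio of 0.02 [-0.10, 0.13] includes 0. In monocytes 3 of 18 were higher (background 7.07%) and none was lower (10.8%), with a summed log2 ratio of 0.11 [-0.02, 0.25]. It was -0.07 with doublets kept. Mature neutrophils, the class taken as not replicating, had a summed log2 ratio of 0.86 [0.52, 1.22], from 180 and 112 UMIs with 2 genes measured. That value is no smaller than those of B cells, plasma cells, cDC and C1q macrophages. A ratio of that size was thus not confined to classes that divide, and its cause was not tested.

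**Figure D2:**
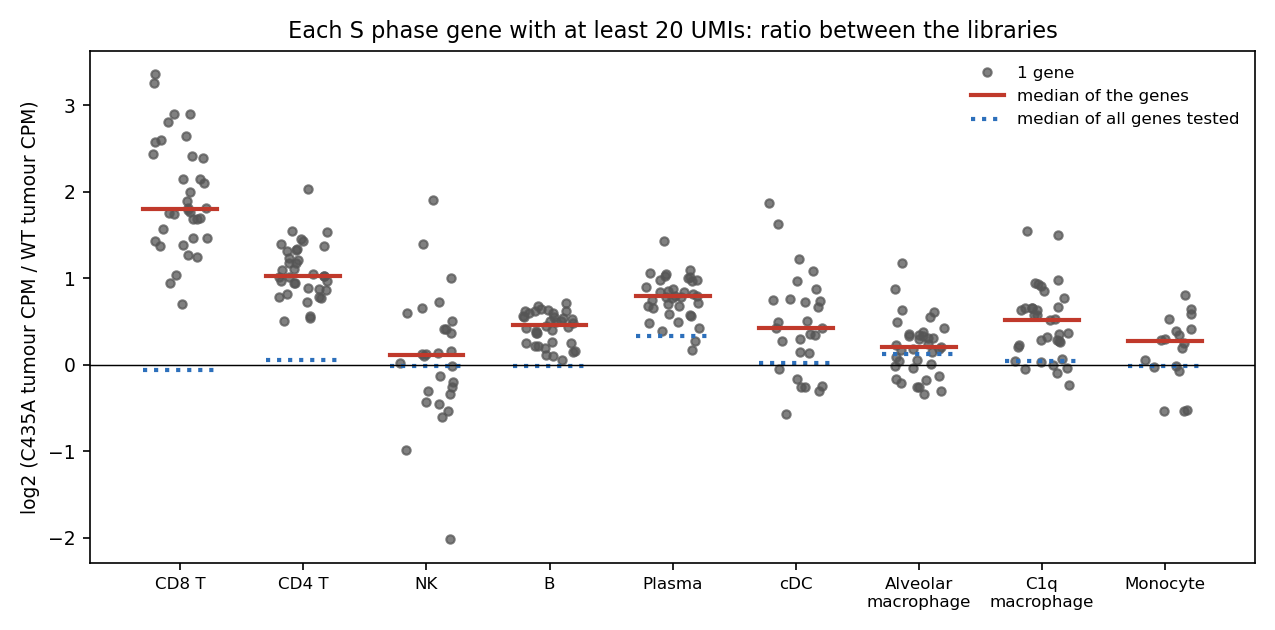
Log2 ratio of C435A tumour CPM over WT tumour CPM (vertical axis) of each S phase gene with at least 20 UMIs over both libraries (points), in 9 cell classes, with the median of these genes (red line) and of all genes tested in the class (dotted blue line). In CD8 T cells every point lies above 0, from 0.70 to 3.36, and in NK cells the points lie on both sides.

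Melanoma transcripts, a sign of RNA from another cell type, moved with the tumour group in every class and are given beside these results. The 6 transcripts Dct, Pmel, Tyrp1, Mlana, Tyr and Gpnmb summed to 24.4 and 104 CPM in CD8 T cells, 42.4 and 127 in B cells, 20.5 and 48.8 in plasma cells, 318 and 624 in alveolar macrophages and 964 and 2363 in C1q macrophages. None of the 6 was at 0 in any of the 9 classes. Gpnmb is also expressed by macrophages, and in both macrophage classes a single transcript made up most of the sum. The highest transcript had 283 and 563 CPM in alveolar macrophages and 924 and 2300.1 CPM in C1q macrophages. The sums of these macrophage classes are therefore not a plain sign of RNA from another cell type. Melanoma-gated cells themselves (65 and 127 cells) had 2441 and 2483 CPM of the S phase genes. The part of these transcripts in the differences was not tested. Depth also moved with the tumour group, with median UMIs per cell of 4598 and 3184 in CD8 T cells, 7274 and 11405 in alveolar macrophages and 8161 and 12700.5 in C1q macrophages, and its part was not tested.

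Of the licensing and helicase genes, Mcm2 to Mcm7 encode the hexameric helicase motor, Cdc6 helps to load it, and Cdc45 and Gins2 belong to the active helicase. Together the 9 genes stood at 1025 and 307 CPM in CD8 T cells, a log2 ratio of 1.74 [1.67, 1.81]. Cdc6 had 468 and 23 UMIs (33 and 3.44 CPM), a log2 ratio of 3.26 [2.66, 3.93]. The 6 Mcm genes were closer together, from 1.38 [1.24, 1.53] for Mcm6 to 2.15 [1.95, 2.35] for Mcm5. Cdc45 (54.7 and 9.14 CPM, 2.58 [2.21, 2.98]) and Gins2 (37.5 and 6.89 CPM, 2.44 [2.01, 2.91]) lay above all of the Mcm genes. The loader Cdc6 thus had a larger ratio than the motor subunits in this class beyond its interval. The cofactors Cdc45 and Gins2 had larger values, but their intervals overlap that of Mcm5.

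The same 9 genes gave log2 ratios of 0.94 [0.83, 1.05] in CD4 T cells and 0.47 [0.40, 0.53] in B cells. In plasma cells they gave 0.88 [0.78, 0.98], beside a median of 0.33 for all genes. In alveolar macrophages they gave 0.14 [0.04, 0.23], beside a median of 0.12 for all genes. In CD4 T cells Cdc45 again had a larger value than the Mcm genes, at 43.8 and 15.1 CPM (1.53 [1.00, 2.10]). Its interval overlaps that of Mcm4 (1.17 [0.82, 1.52]). Gins2 did not lie above the Mcm genes (23.3 and 16 CPM, 0.54 [-0.02, 1.14]). In plasma cells Mcm5 was among the 3 highest members, at 101 and 48.5 CPM (1.06 [0.79, 1.33]). In alveolar macrophages Cdc6 had the highest ratio of all members, with 69 and 38 UMIs (11.8 and 5.27 CPM, 1.17 [0.57, 1.78]), while the Mcm genes lay between -0.13 for Mcm5 and 0.23 for Mcm3. Cdc6 therefore had an interval above 0 in 5 of the 6 classes where it was measured, and in C1q macrophages it was 0.37 [-0.93, 1.55] from 9 and 22 UMIs.

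Nucleotide supply is represented by Tyms (thymidylate synthase), Rrm1 and Rrm2 (the subunits of ribonucleotide reductase), Dut (which removes dUTP) and Tk1 (thymidine salvage). These 5 genes had the largest summed ratio of any role in CD8 T cells, 1228 and 239 CPM, a log2 ratio of 2.36 [2.29, 2.44]. Rrm2, the subunit that is made anew in S phase, had 4628 and 291 UMIs (326 and 43.6 CPM, 2.90 [2.73, 3.08]), and its partner Rrm1 2020 and 270 UMIs (142 and 40.4 CPM, 1.81 [1.63, 2.00]). Tk1 (75.9 and 10.2 CPM, 2.90 [2.54, 3.27]) and Tyms (152 and 25.2 CPM, 2.60 [2.37, 2.83]) were close to Rrm2, and Dut was lower at 532 and 119.7 CPM (2.15 [2.05, 2.26]).

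The gap between the reductase subunits recurred in CD4 T cells, where Rrm2 was at 255 and 87.8 CPM (1.54 [1.32, 1.76]) and Rrm1 at 107 and 57.6 CPM (0.89 [0.60, 1.18]). In B cells the values were 121 and 79.9 CPM for Rrm2 (0.60 [0.45, 0.75]) and 81.5 and 70 CPM for Rrm1 (0.22 [0.05, 0.39]). In C1q macrophages Rrm2 had the highest ratio of all members, from 79 and 86 UMIs (65.8 and 22.7 CPM, 1.54 [1.08, 1.99]), and all 5 nucleotide genes passed the fold. Tk1 behaved differently in plasma cells, at 36 and 31.9 CPM (0.17 [-0.20, 0.56]), the lowest ratio of the 36 genes there, beside 317 and 159 CPM for Rrm2 (1.00 [0.85, 1.15]). Alveolar macrophages had Tyms at 27.4 and 32.9 CPM (-0.26 [-0.56, 0.03]), Tk1 at 26.7 and 32 CPM (-0.26 [-0.56, 0.04]) and Rrm1 at 56.7 and 65.4 CPM (-0.21 [-0.41, 0.00]), against 69.2 and 56.3 CPM for Dut (0.30 [0.10, 0.50]).

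The clamp group holds Pcna (the sliding clamp), Pclaf (a small protein that binds PCNA), Rfc3, Rfc4 and Dscc1 (clamp loaders), Rpa2 (single-strand DNA binding), Pola1 and Prim1 (polymerase alpha and primase) and Fen1 (the flap nuclease). Pclaf had the highest ratio of all members in CD8 T cells, with 10293 UMIs (725 CPM) against 473 (70.8 CPM), a log2 ratio of 3.36 [3.22, 3.49]. Without Pclaf the summed log2 ratio of the list in CD8 T cells was 1.75 in place of 1.89. Pcna had 5929 and 1077 UMIs (418 and 161 CPM, 1.37 [1.28, 1.47]), the lowest ratio of this role. The clamp and the protein that binds it were thus at opposite ends of the group.

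Pclaf was also higher in CD4 T cells (525 and 193 CPM, 1.45 [1.30, 1.60]), plasma cells (495 and 285 CPM, 0.80 [0.68, 0.91]), B cells (416 and 266 CPM, 0.64 [0.56, 0.73]), C1q macrophages (109 and 57.2 CPM, 0.93 [0.61, 1.25]) and cDC (118 and 69.7 CPM, 0.76 [0.33, 1.18]). In alveolar macrophages it went the other way, with 650 and 992 UMIs (111 and 138 CPM, -0.30 [-0.45, -0.16]). Pcna stayed near 0 in both macrophage classes, at 274 and 266 CPM (0.04 [-0.06, 0.14]) in alveolar and 206 and 196 CPM (0.07 [-0.15, 0.28]) in C1q macrophages, and was 210.3 and 195 CPM (0.11 [0.01, 0.22]) in B cells. The loaders Rfc3 (62.2 and 16.8 CPM, 1.89 [1.61, 2.19]) and Rfc4 (78.2 and 23.4 CPM, 1.74) were close to each other in CD8 T cells. In NK cells Rfc4 had 15 and 24 UMIs (7.86 and 31.9 CPM, -2.02 [-3.06, -1.03]) and Prim1 23 and 18 UMIs (12 and 23.9 CPM, -0.99 [-1.94, -0.01]), the lowest ratios of that class.

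Chromatin and histone supply covers Chaf1b (a subunit of the histone chaperone CAF-1), Nasp (a histone chaperone), Slbp (which binds histone mRNA), Uhrf1 (which recruits DNA methylation to new DNA) and Hells (a chromatin remodeller). Uhrf1 (119.9 and 22.6 CPM, 2.41 [2.17, 2.66]) and Chaf1b (47.9 and 9.14 CPM, 2.39 [2.01, 2.79]) had larger ratios in CD8 T cells than Slbp (333 and 138 CPM, 1.27 [1.17, 1.37]) and Nasp (213 and 104 CPM, 1.04 [0.92, 1.16]). Nasp had the lowest ratio of all members in CD4 T cells (172 and 122 CPM, 0.50 [0.30, 0.71]), where Slbp was near the median gene (265 and 128 CPM, 1.05 [0.86, 1.24]). The reverse held in plasma cells, with Slbp low (145 and 111 CPM, 0.39 [0.20, 0.58]) and Nasp near the median gene (143 and 79.4 CPM, 0.84 [0.63, 1.06]). In alveolar macrophages the role stood at 261 and 199 CPM (0.39 [0.28, 0.49]), with Hells at 25 and 13.7 CPM (0.87 [0.49, 1.25]) and Uhrf1 at 34.8 and 22.7 CPM (0.61 [0.31, 0.92]). Chaf1b was at 8.22 and 10.4 CPM there (-0.34 [-0.89, 0.20]), so the members of this role did not move together in that class.

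The entry regulators are Ccne1 and Ccne2 (the E cyclins, partners of CDK2), E2f1 (a transcription factor of S phase genes) and Cdca7 (a chromatin protein that works with Hells). Ccne2 had 269 and 18 UMIs in CD8 T cells (18.9 and 2.7 CPM, 2.81 [2.12, 3.59]) and Ccne1 625 and 85 UMIs (44 and 12.7 CPM, 1.79 [1.46, 2.13]). E2f1 was at 19.2 and 4.49 CPM (2.10 [1.55, 2.69]) and Cdca7 at 41.3 and 17.4 CPM (1.25 [0.96, 1.55]). Ccne1 was among the 3 highest members of plasma cells (40.8 and 19.1 CPM, 1.10 [0.66, 1.55]) and Ccne2 among those of alveolar macrophages (13.5 and 8.73 CPM, 0.63 [0.14, 1.13]). E2f1 had intervals that include 0 in B cells (0.05 [-0.34, 0.44]), plasma cells (0.28 [-0.39, 0.97]), alveolar macrophages (0.15 [-0.09, 0.39]) and C1q macrophages (0.36 [-0.25, 0.94]).

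Fork protection and repair is represented by Clspn (claspin, which passes on the replication checkpoint), Tipin (its partner at the fork), Usp1 (a deubiquitinase that acts on PCNA) and Ung (which removes uracil from DNA). Clspn had the highest ratio of all members in CD4 T cells, with 242 and 36 UMIs (63.5 and 15.6 CPM, 2.03 [1.52, 2.57]), and was at 86.8 and 13.9 CPM (2.64 [2.34, 2.96]) in CD8 T cells. Usp1 (84.9 and 44 CPM, 0.95 [0.76, 1.14]) and Ung (33.7 and 20.7 CPM, 0.70 [0.43, 0.99]) had the lowest CD8 T ratios besides Nasp. Ung was instead at the high end in plasma cells, with 80 and 24 UMIs (20.3 and 7.51 CPM, 1.43 [0.76, 2.16]), and in B cells, with 261 and 156 UMIs (35.1 and 21.9 CPM, 0.68 [0.39, 0.97]). Across the 36 genes, intervals lay above 0 in the most classes for Rrm2 and Clspn (7 of 8 measured) and Dut (7 of 9). The fewest were for E2f1 (2 of 8 measured), Chaf1b (2 of 6) and Dscc1 (2 of 5). Intervals are wider where UMIs are few, and Dut had 15620 and 5789 UMIs in the kept cells against 507 and 261 for Dscc1. The counts are therefore not read as breadth of a difference.

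How many cells carried the signal was read after thinning each cell to 1000 UMIs and counting cells with at least 3 UMIs of the 36 genes as S-positive. Among CD8 T cells 38.2% [36.2, 40.3] and 8.99% [7.73, 10.4] were S-positive, a difference of 29.2 points [26.8, 31.6]. Unthinned, the shares were 74.7% and 51.3%, at median depths of 4598 and 3184 UMIs. The class is a range of a count and not a cell type: 141 and 97 CD8 T cells lay exactly at 3 UMIs and 292 and 268 just below it at 2. The shares were 27% and 10.4% in CD4 T cells (61% and 40% unthinned), 32.4% and 9.07% over all T cells, and 36.5% and 19.9% in plasma cells (80% and 79.5% unthinned).

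Mature neutrophils, the reference class, had 2.34% [0.763, 5.37] and 0.431% [0.0109, 2.38], with median depths of 1566 and 1716 UMIs, monocytes had 3.19% and 1.65%, and mature dendritic cells 0 of 51 cells (an upper bound of 6.98%) and 1.28%. B cells had 11.2% and 9.67%, a difference of 1.55 points [-0.219, 3.34] that includes 0, although their summed level was higher. The interval of that difference excludes 0 at a cut of 5 UMIs (2.03 points [0.815, 3.28]) and with doublets kept (2.63 points [0.907, 4.38]). Differences in NK cells (10.5% and 11.1%), alveolar macrophages (14.2% and 13.4%), C1q macrophages (13.5% and 11.9%) and cDC (10.4% and 5.15%) also had intervals that include 0. Exceptions among the alternatives were C1q macrophages at a cut of 2 UMIs (10.4 points [0.0418, 21.4]) and cDC with doublets kept (7.24 points [0.154, 15.3]). Thinning left out 6 and 4 CD8 T cells, 25 and 20 B cells, 27 and 8 NK cells and at most 5 cells of any of the other main classes in a library.

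Cells with transcripts of division were then set apart by 25 mitosis genes that share no member with the list, as those with at least 2 of 1000 thinned UMIs from them. Of the CD8 T cells, 780 (35.1% [33.1, 37.1]) and 57 (3.05% [2.32, 3.94]) passed. Mature neutrophils again serve as the reference, with 8.41% [5.06, 13] and 5.6% [3.02, 9.39] of cells past this gate, while monocytes had 2.21% and 0.33%. Shares within or below these intervals are not read as division, which applies, among the 5 classes described next, to CD8 and CD4 T cells of the WT tumour library, to B cells in both and to alveolar macrophages of the C435A tumour library. Within the gated CD8 T cells the S phase genes stood at 7146 and 6120.0 CPM, a log2 ratio of 0.22 [0.17, 0.28]. In the remaining CD8 T cells they stood at 2362 and 1064 CPM, a log2 ratio of 1.15 [1.11, 1.19]. At this cut the level in gated cells was thus much closer between the libraries than the share of cells in the gate. The cells outside the gate differed as well. Mature neutrophils in the gate had 782 and 587 CPM of the S phase genes, far below gated CD8 T cells of either library. They were also far below gated CD4 T cells, B cells, plasma cells and alveolar macrophages of either library. The neutrophil reference thus limits what is read from the shares and does not show that the gated cells of these classes were not dividing.

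CD4 T cells had the same arrangement, with 24% and 5.57% of cells in the gate, 6638 and 5476 CPM inside (0.28 [0.21, 0.34]) and 1929 and 1064 CPM outside (0.86 [0.78, 0.94]). In B cells 9.98% and 6.13% of cells were in the gate, with 7050.2 and 6891 CPM inside (0.03 [0.00, 0.07]) and 1314 and 1025 CPM outside (0.36 [0.31, 0.41]). In plasma cells the shares were 42.2% and 25.5%. The S phase genes were at 5172 and 4094 CPM inside (0.34 [0.29, 0.39]) and 1293 and 837 CPM outside (0.63 [0.54, 0.72]). The median log2 ratio of all genes was 0.33 over the whole plasma class. The ratio inside the gate is close to that shift and is not read as particular to the S phase genes. Alveolar macrophages had 11.3% [9.01, 13.9] and 13.6% [10.9, 16.6] of cells in the gate, 4531 and 4305 CPM inside and 989 and 821 CPM outside. The sizes and their order depend on the gate. With at least 1 mitosis UMI the CD8 T ratio was larger inside (1.07) than outside (0.92). With at least 4 the CD8 T ratios were 0.00 inside and 1.73 outside. Cells in the gate were also deeper, with medians of 9424 and 6338 UMIs in CD8 T cells against 3567 and 3159 outside it.

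**Figure D3:**
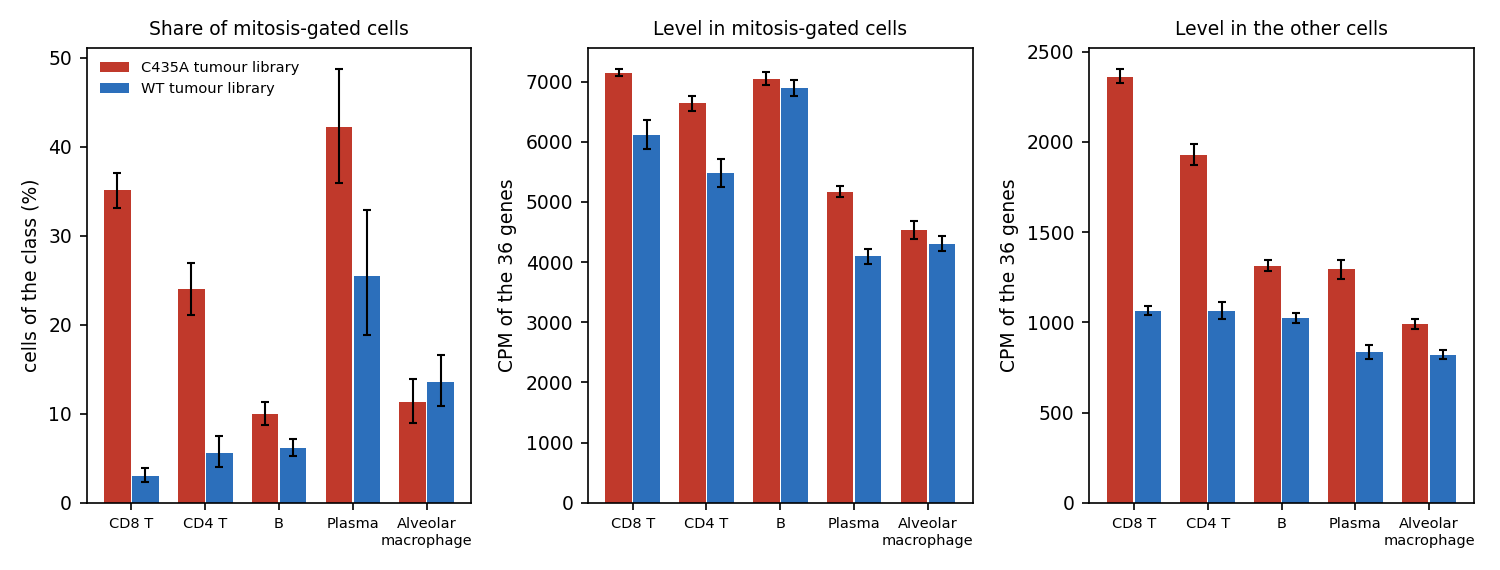
Share of cells past the mitosis gate (left, % of the class), and summed S phase CPM in these cells (middle) and in the other cells (right), for 5 classes in the C435A tumour library (red) and the WT tumour library (blue), with 95% binomial or Poisson intervals for counting error. CD8 T cells go from 3.05% to 35.1% of cells in the gate, while the level inside it is 6120.0 and 7146 CPM.

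Both marks were then set side by side. Of CD8 T cells past either mark, 234 of 1014 (23.1% [20.5, 25.8]) in the C435A tumour library had the S phase mark alone, against 137 of 194 (70.6% [63.7, 76.9]) in the WT tumour library. Both marks were met by 60.7% and 16% of them. CD4 T cells had the S phase mark alone in 27.6% and 54.1% of those past either mark, and B cells in 36.4% and 49.8%. Of all cells these were 75 of 822 and 46 of 700 CD4 T cells and 124 of 2175 and 157 of 2576 B cells, so the share among marked cells moved with the number of cells with both marks (147 and 27, and 120 and 92). In plasma cells (12.7% and 19.6%) and alveolar macrophages (42.2% and 27.9%) the intervals of the libraries overlap. As a share of all CD8 T cells the group with the S phase mark alone was 234 of 2221 and 137 of 1868, so the libraries differed far more in cells with both marks (615 and 31). These marks are cuts on few UMIs, free RNA can add to them, and no position in the cycle is read from them.

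**Figure D4:**
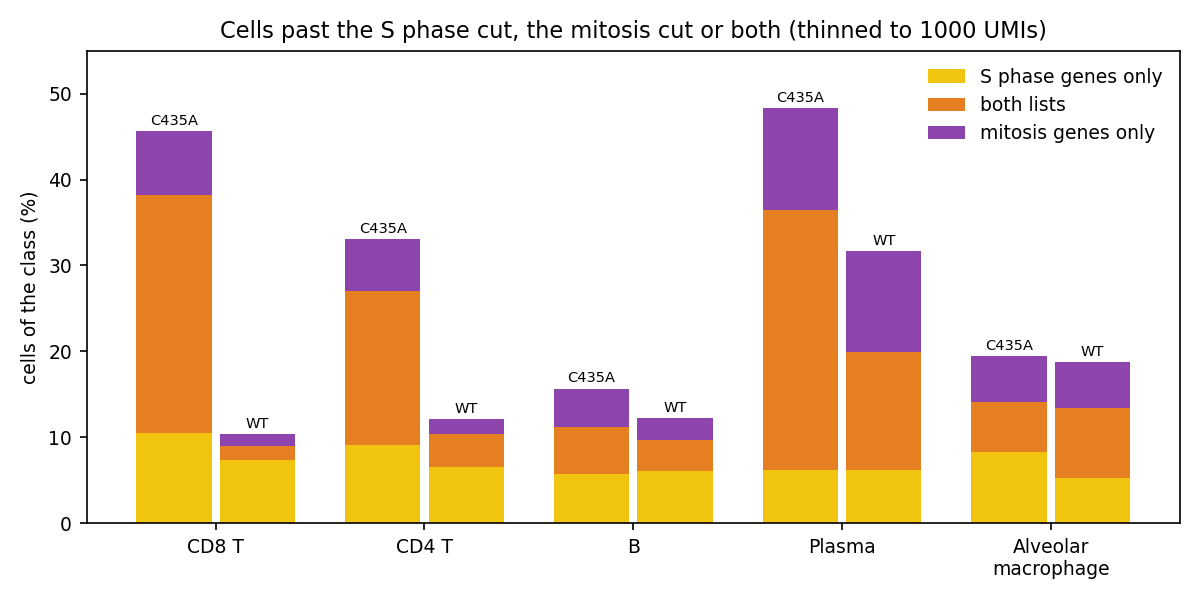
Share of the cells of 5 classes (vertical axis, %) with the S phase mark alone (yellow), both marks (orange) or the mitosis mark alone (purple), in the C435A tumour library (left bar of each pair) and the WT tumour library (right bar), after thinning to 1000 UMIs. Both marks were met in CD8 T cells by 615 of 2221 and 31 of 1868 cells.

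The members differed widely in how tightly they were tied to the mitosis gate, measured as CPM in gated cells over CPM in all other kept cells outside the melanoma gate, cells of no class included. The gated cells numbered 1618 and 500 and the others 7469 and 8364. Pclaf was 14.3 and 33.6 times higher in gated cells, with 87.9% of its UMIs in them over both libraries. Rrm2 followed with 11.9 and 25 times, then Tk1 (7.86 and 15.6), Clspn (7.37 and 15.4) and Tyms (8.27 and 11). For comparison, 3 genes of the gate itself were at 30.2 and 52.9 times (Birc5), 20.2 and 42.2 times (Mki67) and 20.2 and 33 times (Top2a). Pclaf was below all of these in the C435A tumour library and near Top2a in the other.

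At the other end, E2f1 was 1.44 and 2.04 times higher in gated cells, Ung 1.82 and 1.7, Usp1 2.56 and 2.67, Slbp 2.67 and 2.75, and Pcna 2.92 and 3.04. Of the E2f1 UMIs 36.2% lay in gated cells. These folds pool all classes, and the place of a gene depends on which classes express it: within CD8 T cells E2f1 was at 23.2 and 14.3 CPM in the gate and 13.8 and 3.84 outside it, and Ung at 34.9 and 23.8 CPM in the gate and 31.9 and 20.3 outside it. The Mcm genes ranged from 2.86 and 3.21 times (Mcm4) to 4.67 and 6.2 times (Mcm5), below Cdc45 at 6.84 and 10.3. Of the 4 genes with the largest ratios between the tumours in CD8 T cells, Pclaf, Rrm2 and Tk1 were among those most tied to the gate, and Cdc6 was at 4.08 and 11 times. Both rankings share cells, since 780 of the 1618 gated cells of the C435A tumour library were CD8 T cells. The overlap between the rankings is thus partly built in and is no separate result. Processed copies of Pcna, Nasp and Tyms are listed as 4 features of their own, so reads shared with them are uncertain.

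**Figure D5:**
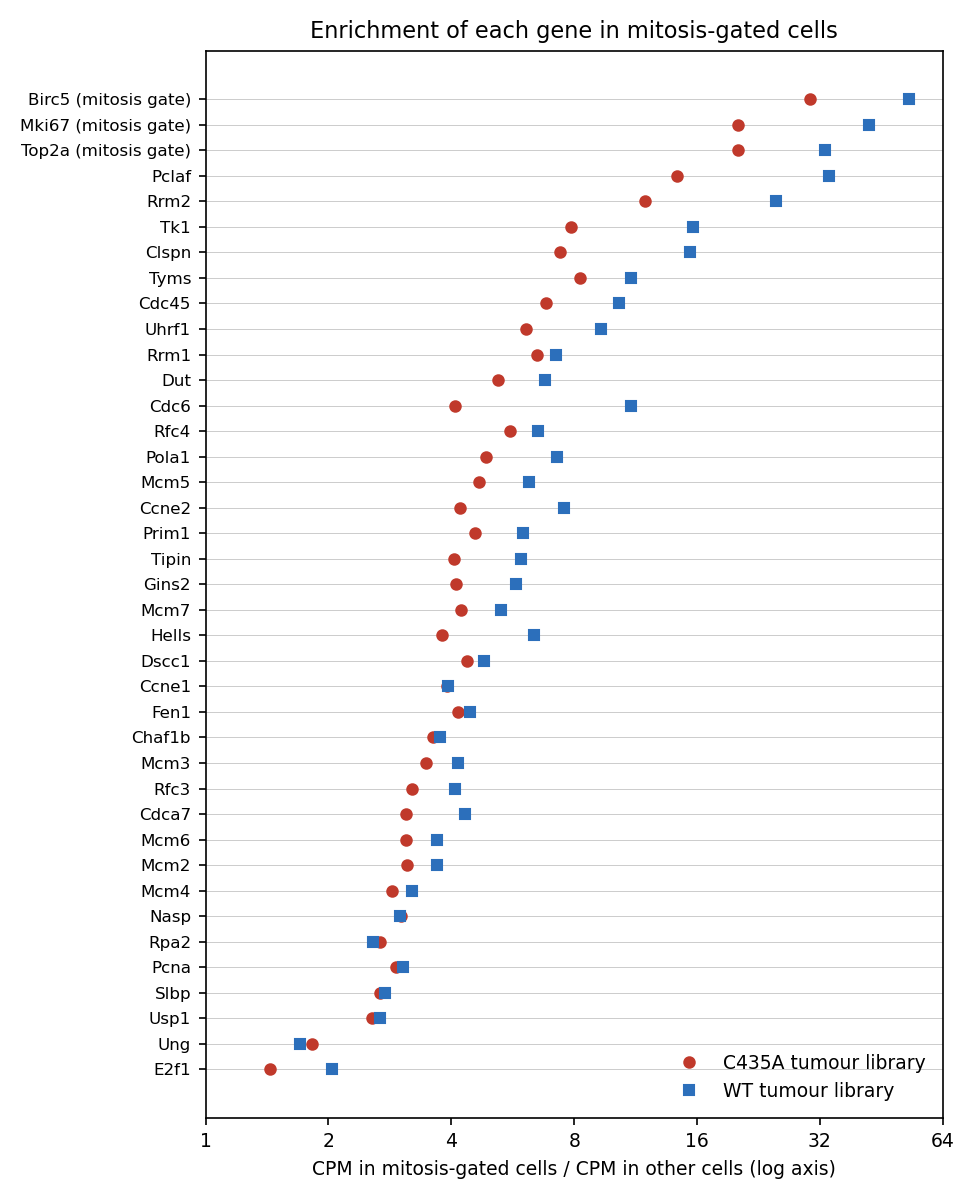
CPM in mitosis-gated cells divided by CPM in other cells (horizontal log axis) for each S phase gene and for 3 genes of the gate itself, in the C435A tumour library (red circles) and the WT tumour library (blue squares). Among the S phase genes Pclaf is highest in both libraries, at 14.3 and 33.6, and the lowest are E2f1 in the C435A tumour library (1.44) and Ung in the WT tumour library (1.7), while Birc5 of the gate reaches 30.2 and 52.9.

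Within gated cells, the make-up of the programme by role was much alike between these 5 classes. Licensing and helicase genes made up 18.6% and 16.9% of the S phase UMIs in CD8 T cells, 19.7% and 19.5% in B cells, 19.7% and 18.4% in plasma cells and 17.1% and 16.9% in alveolar macrophages. The clamp group made up 31.8% to 33% in the T, B and plasma classes of both libraries, and 35.7% and 39.7% in alveolar macrophages. Single genes were less even. Dut in gated cells was at 735 and 611 CPM in CD8 T cells, 795 and 698 in B cells and 504 and 398 in plasma cells, against 218 and 163 in alveolar macrophages.

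Rfc4 and Tipin were low in gated alveolar macrophages too, Rfc4 at 37.4 and 48.7 CPM beside 97.4 to 139.5 in the CD8 T, CD4 T, B and plasma classes, and Tipin at 90.4 and 70.8 CPM beside 134 to 234. Pcna went the other way, at 727 and 666 CPM in gated alveolar macrophages against 240.1 to 551 in those 4 classes. E2f1 was at 57.9 and 44.3 CPM there and at 43.4 and 40.3 CPM in alveolar macrophages outside the gate, so its level in that class was close inside and outside the gate. The direction of these class differences was the same in both libraries.

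Among the T, B and plasma classes, Cdca7 and Ung in gated cells were highest in B cells, Cdca7 at 113 and 122 CPM beside 24.5 to 59.4 in the T and plasma classes, and Ung at 56.9 and 48.7 CPM beside 5 to 34.9. Ung acts in antibody diversification in B cells besides its role in repair. Tyms was higher in gated T cells (227 and 204 CPM in CD8, 295 and 250 in CD4) than in gated B cells (167 and 136) or plasma cells (146 and 116). Slbp was at 369.9 and 380.3 CPM in gated B cells and 206 and 195 in gated plasma cells. Outside the gate, Slbp was highest in NK cells, at 229.6 and 235 CPM, beside 192 and 121 in CD8 T cells and 82.1 and 85.5 in monocytes, and only 28 and 6 NK cells were in the gate.

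The rest of the replication machinery was taken from a list of 36 further genes. In CD8 T cells of the C435A tumour library 34 of them were higher by at least 1.5-fold (background 17.6%) and none was lower, with a summed log2 ratio of 1.53 [1.49, 1.57]. Examples are Lig1 (DNA ligase, 145 and 25.3 CPM, 2.52 [2.29, 2.76]) and E2f8 (a repressor among the E2F factors, 49.1 and 6.14 CPM). Rfc1, the large clamp loader subunit, was at 65.6 and 49 CPM (0.42 [0.24, 0.61]). Beside the backgrounds of all genes, 26 were higher in CD4 T cells (background 15.2%), 21 in plasma cells (24.7%), 3 in B cells (3.74%) and 2 in alveolar macrophages (10.5%). None was lower in these classes by the same fold.

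The 25 mitosis genes had a larger summed ratio than the S phase genes in CD8 T cells, 4581 and 597 CPM (2.94 [2.89, 2.99]), and in cDC, 1151 and 419.9 CPM (1.45 [1.30, 1.61]). The same held in NK cells, where the mitosis genes were at 527 and 300.3 CPM (0.81 [0.60, 1.03]) beside 0.02 for the S phase genes, in C1q macrophages (0.97 [0.87, 1.07]), CD4 T cells (1.30 [1.25, 1.35]) and monocytes (0.63 [0.34, 0.92]). In B cells (0.44 [0.40, 0.47]) and plasma cells (0.75 [0.71, 0.79]) both lists stood close together, and in alveolar macrophages the mitosis genes were at 963 and 1020.2 CPM (-0.08 [-0.13, -0.03]). Few cells passed the mitosis gate in some classes: 28 and 6 NK cells, 9 and 6 cDC, 11 and 18 C1q macrophages and 9 and 1 monocytes. Mature neutrophils, the reference class, had a mitosis gene log2 ratio of 0.35 [0.01, 0.70]. That interval overlaps those of NK cells and monocytes, so the ratios of these classes are not read as division. CD8 T cells of the C435A tumour library held 1.12 S phase UMIs for each mitosis UMI and those of the WT tumour library 2.32.

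Regulators of entry and arrest outside the list went both ways in CD8 T cells, with 8 of 18 higher (background 17.6%) and 5 lower (background 23.3%) by the same fold, the latter near the share of all genes. Higher were Cdkn2c (an inhibitor of CDK4 and CDK6, 58.9 and 15.3 CPM, 1.95 [1.65, 2.26]), Rb1 (the retinoblastoma protein, 34.6 and 12.1 CPM, 1.51 [1.17, 1.87]) and Cdk2 (the partner of cyclin E, 46 and 17.5 CPM, 1.39 [1.11, 1.69]). Lower were Myc (25.6 and 76.2 CPM, -1.57 [-1.77, -1.38]), Btg1 (an antiproliferative gene of resting lymphocytes, 694 and 1612 CPM, -1.22 [-1.26, -1.18]) and Ccnd2 (cyclin D2, 222 and 470.4 CPM, -1.08 [-1.15, -1.01]).

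The genes whose level followed the summed list most closely over 27 points (each a class in a library with at least 50 cells) were Lig1 (Pearson r 0.944), Bard1 (0.937), Nup37 (0.936), Mad2l1 (0.935), Fignl1 (0.933), Cenps (0.928), Cenpn (0.928), Ska3 (0.927), Cks1b (0.922) and Ncapd2 (0.921). The correlation is of log2(CPM + 1) and is a description, since the points share libraries and depth. Of these 10, Lig1 was on the list of other replication genes and none was on the mitosis list. The mitosis list is a selection, so absence from it does not show that a gene has no part in mitosis.

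Classes under 50 cells in a library are given as values only. Plasmacytoid dendritic cells (46 and 60 cells) had 609.9 CPM [503, 733] and 507 CPM [426, 598] of the S phase genes. The cDC1 gate (16 and 10 cells) had 2375 and 3209 CPM, with a single cell holding 39.6% and 37.4% of the UMIs, and the cDC2 gate (37 and 47 cells) had 1839.5 and 864 CPM.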

How the data were processed

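Counts were used as the authors deposited them: whole UMI counts per gene and cell barcode, with 10373 and 10156 barcodes and 59615672 and 54934397 UMIs (C435A tumour, then WT tumour). Cell Ranger 7.2.0 is named per the file headers and GRCm38 per the submitters' processing notes. For the annotation release, the intron setting and the rule for calling cells, the choice is not given in the sources used here. A text table of the same barcodes, deposited beside each matrix, was not used.

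Barcodes with fewer than 200 genes, fewer than 500 UMIs or a mitochondrial share of 20% or more were dropped (102 and 157). Scrublet, run in scanpy 1.11.5, then ranked cells, and the highest scores were removed as doublets at 0.8% per 1000 barcodes, 844 and 800. Each cell was gated on summed marker UMIs: the first lineage needed at least 3 UMIs and 4 times those of the next. Plasma cells also needed at least 5 UMIs of plasma cell genes and more of these than of B cell genes. UMIs of a class were summed and divided by its total (CPM). Ratios have exact conditional intervals, levels exact Poisson intervals and shares exact Clopper-Pearson intervals, all at 95%. No count model was fitted. The interval calculation was run on simulated counts. With 200 changed genes the intervals held the true value for 96% of changed genes in CD8 T cells (12482 genes) and 95.5% in NK cells (8542 genes). Those counts were drawn from the Poisson model that the intervals assume, so coverage near 95% was built in. The simulation checks the calculation only and says nothing about spread between cells, mice or libraries. Python 3.11.15, numpy 2.4.6, scipy 1.17.1, pandas 2.3.3 and matplotlib 3.10.9 were used. Promoters came from RefSeq (GRCm38.p6) and gene coordinates from GENCODE M21.

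The members, gate markers, lists and alternatives were chosen with earlier results of these data known. All members could be named, and those with full values in a class are the 6 with the most UMIs and the 3 highest and 3 lowest ratios; other members were picked after their values were seen. The alternative without the cell with the most member UMIs was added after seeing the data. Genes most like the list needed a mean of at least 5 CPM.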

Additional observations from a re-analysis of the deposited data

Results flagged for a closer look

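Members that were lower in the C435A tumour library with an interval below 0 in one class, while their interval lay above 0 in others, are Pclaf in alveolar macrophages (log2 ratio -0.30, beside 3.36 in CD8 T cells), Rrm1 in alveolar macrophages (-0.21, beside 1.81), Rfc4 in NK cells (-2.02, beside 1.74) and Prim1 in NK cells (-0.99, beside 1.81). The NK cell values rest on 15 and 24 UMIs for Rfc4 and 23 and 18 for Prim1. The differences between classes were not tested, and each class is 1 library per tumour.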

How the results depend on the processing

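Of 90 recomputed ratios of the summed list, 66 stayed within the interval of the value reported, and so did 34 of 36 differences in S-positive share and 5 of 20 ratios inside or outside the mitosis gate. With each cell weighted alike the summed log2 ratio was 1.71 in CD8 T, 1.26 in CD4 T and 0.27 in B cells, and changed sign to -0.04 in alveolar macrophages. Scaling to the median ratio gave 1.01 in CD4 T cells, 0.43 in plasma cells and 0.01 in alveolar macrophages. With the next lineage at most 10% of the first it was 1.82 in CD8 T cells, 0.36 in B cells, 0.89 in plasma cells, 0.31 in cDC and 0.63 in C1q macrophages, and with at most 50% of it 1.03 in CD4 T cells, 0.91 in plasma cells and 0.18 in alveolar macrophages. With doublets kept it was 1.78 in CD8 T cells, 0.75 in cDC, 0.24 in C1q macrophages and -0.07 in monocytes. Without Pclaf it was 1.75 in CD8 T and 0.41 in B cells, without Usp1, Slbp, Nasp, Dut and Rpa2 2.05 in CD8 T cells and 0.07 in alveolar macrophages, and without the cell with the most member UMIs 1.15 in CD4 T cells. The difference in S-positive share was 26.3 points in CD8 T cells at 5 UMIs and -5.2 in NK cells at 2. Its interval came to exclude 0 in B cells (2.03 at 5 UMIs, 2.63 with doublets kept), C1q macrophages (10.4 at 2 UMIs) and cDC (7.24 with doublets kept). With at least 1 mitosis UMI the ratio inside the gate was 1.07 in CD8 T, 0.45 in CD4 T and 0.17 in B cells and 0.01 in alveolar macrophages, and outside it 0.92 in CD8 T and 0.13 in B cells and 0.08 in alveolar macrophages. With at least 4 it was 0.00 in CD8 T and 0.13 in CD4 T cells, 0.18 in plasma cells and 0.20 in alveolar macrophages inside, and 1.73 in CD8 T, 1.21 in CD4 T, 0.55 in B and 0.87 in plasma cells outside. Apart from the settings of gate and list themselves, the cause was not tested. Counts of higher members that moved by over 1.5 times were B cells (9, then 2 and 5 with the stricter and looser lineage rule), plasma cells (28, then 10 under median ratio scaling), C1q macrophages (14, then 4 with doublets kept), cDC (11, then 6 with the stricter lineage rule and 17 with doublets kept), alveolar macrophages (4, then 2 under median ratio scaling or equal weights), NK cells (6, then 3 with the stricter lineage rule and 11 with no minimum per gene) and monocytes (3, then 6, 1 and 7 with the stricter rule, doublets kept and no minimum). Counts of lower members were at most 3 in every class as reported and reached 6 in NK cells with equal weights and 6 in monocytes with doublets kept. CD8 T and CD4 T counts stayed within 1.5 times under every alternative run.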
